A study of Eutrema with 12 samples.

Results

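PIP is the name on the array for a plasma membrane aquaporin, a water channel of the plant cell surface, and its transcript was read at every spot that carries that name. These were 9 of the 13449 cDNA spots, and PIP was 1 of 4279 cDNA names and 1 of 28 that look like a gene name. The 9 spots lay as 3 neighbours at each of 3 locations on the array. PIP was picked with its field over cabinet ratios of both years known from earlier work on these files, so its ratios are described here without a test. All were measured in cauline leaves, the small stem leaves of flowering plants, in Thellungiella salsuginea of the Yukon ecotype, a crucifer that tolerates salt, cold and drought. Field plants were individuals from their natural habitat under ambient conditions, 3 harvested in 2003 and 3 in 2005, lettered A, B and C within a year. The text that accompanies the series letters the last plant of 2005 D instead of C. Each was set against cauline leaves of untreated cabinet plants, 12 weeks old and grown in long days with warm days and cool nights, on 2 arrays with the dyes exchanged. By the sample records, field mRNA was amplified once and cabinet mRNA was not, so growth in the field and amplification cannot be told apart in any ratio below. The sources used here do not say whether a single cabinet RNA served several field plants, and no name on the array was a leaf marker against which the tissue label could be checked.

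Aquaporins of the plasma membrane intrinsic protein family assemble as tetramers in which each subunit forms its own pore. In leaves they set how fast water crosses living cells between the veins and the air spaces, and some members also pass carbon dioxide or hydrogen peroxide. In Arabidopsis, transcripts of many members fall under drought while a few rise, and the channels are also gated and moved to and from the membrane, so a transcript level is not a measure of water flow. The family has many closely related genes. The array name gives no member number, and cross-hybridization between such genes cannot be told apart from the signal of a single one. The sources used here give no locus, genome position or sequence for the PIP cDNA, and no other name on the array was that of an aquaporin.

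In 2003, after normalization within each array, PIP transcripts were more abundant in the field plants than in the cabinet plants, by 1.41-fold on average. This is under the 1.5-fold limit that was set for calls. The log2 ratio of field over cabinet, after normalization within each array, was 0.47 in plant A, 0.52 in plant B and 0.51 in plant C. Their mean was 0.50 ± 0.0287 (SD, n = 3 plants), and all 3 plants lay above 0. The individual arrays read 0.42 and 0.51 for plant A, 0.58 and 0.47 for plant B, and 0.54 and 0.49 for plant C. The plants of 2003 lay close together in PIP with this normalization, but their SD was 0.126 with loess in each spotting block, 0.0891 with median centring and 0.0899 in the deposited values. Before any normalization the mean of 2003 was -0.03 ± 0.41 (SD, n = 3 plants), with 2 of 3 plants above 0. The size of the normalized ratio was not extreme, since 18.95% of the names had a higher mean in 2003.

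In 2005 the ratio was on the other side of 0 and smaller. It was -0.31 in plant A, -0.05 in plant B and -0.23 in plant C, with a mean of -0.20 ± 0.132 (SD, n = 3 plants). This corresponds to a level in the cabinet plants 1.15-fold that in the field plants, and 0 of 3 field plants lay above the cabinet. Plant B was nearly level with the cabinet on both arrays, at -0.09 and -0.01. Plant A read -0.30 and -0.32, while plant C differed more between its arrays, at -0.10 and -0.37. Most cDNA names, 60.97%, had a higher mean ratio than PIP in 2005. The sign in 2005 depended on the normalization, and with only the median of each array set to 0 the mean was 0.16, with 2 of 3 plants above 0.

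The year means differed by -0.70 on the log2 scale (2005 minus 2003, standard error 0.175 from the limma fit). The ratio of field to cabinet was thus 1.62-fold higher in 2003 than in 2005, and the lowest plant of 2003 lay above the highest of 2005. With median centring the difference was -0.27 and with no normalization -0.10, and in both the plants of the years overlapped. Over all names, 1.59% were called different between the years by limma, a background that is given beside this contrast because PIP was chosen on it. A larger fall from 2003 to 2005 was seen in 16.1% of the names. With loess, all 54 readings of single PIP spots in 2003 were above 0, from 0.10 to 1.08. In 2005, 42 of 54 were below 0 and 12 above, from -0.54 to 0.31. Such readings repeat the same 3 plants of a year over spots and arrays, so they are not independent. Before normalization, the mean of plant A of 2003 was -0.50. The years were scanned on different days, 4 in 2003 and 2 in 2005 with none shared, so year and scan day cannot be told apart.

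**Figure D1:**
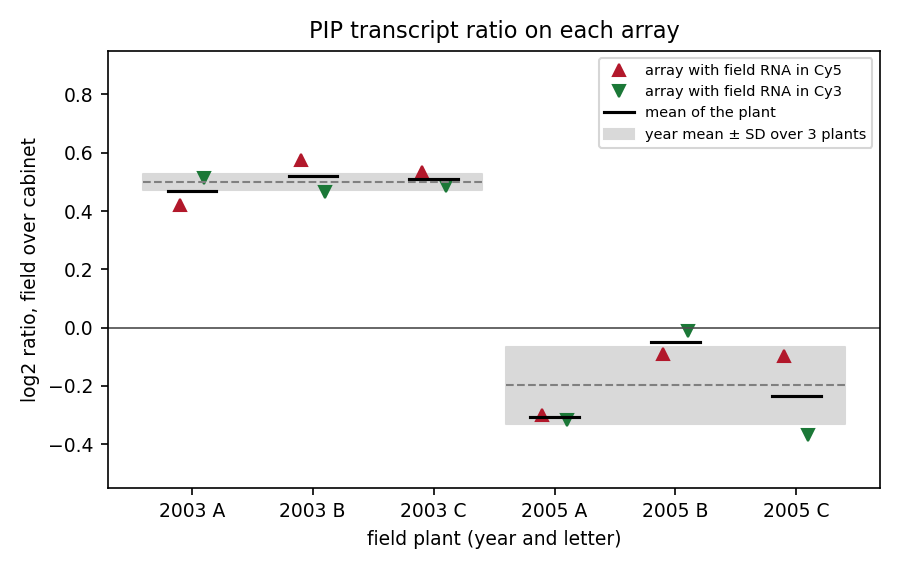
Log2 ratio of field over cabinet for PIP (y axis) on both arrays of each field plant (x axis), as triangles by the dye of the field RNA, with the plant mean as a bar and the year mean ± SD over 3 plants as a grey band. The arrays of 2003 sit between 0.42 and 0.58, and those of 2005 between -0.37 and -0.01.

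The 3 spot locations were read separately, since each holds 3 adjacent spots in a different part of the array. The files do not say whether the spots came from the same clone. In 2003 the mean ratios were 0.47 ± 0.173 at location 1, 0.55 ± 0.287 at location 2 and 0.48 ± 0.112 at location 3 (SD, n = 3 plants each), and 3 of 3 plants lay above 0 at each location. In 2005 location 1 was near 0, at -0.04 ± 0.192, with 1 of 3 plants above 0. Locations 2 and 3 were lower, at -0.28 ± 0.0631 and -0.27 ± 0.144, with 0 of 3 plants above 0. The year difference with loess was -0.51, -0.84 and -0.75 at locations 1, 2 and 3, and at none of them did the plants of the years overlap. With median centring it was -0.16, -0.36 and -0.30, and with no normalization 0.01, -0.19 and -0.12. In both of these settings the plants of the years overlapped at every location.

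Single plants were less even at the locations than in their averages. Plant B of 2003 had ratios of 0.27, 0.88 and 0.42 at locations 1, 2 and 3, and plant C of that year 0.60, 0.33 and 0.61. The low value at location 2 in plant C came with 3 saturated spots on its second array, where both channels stood at the scanner maximum and the ratio was 0.10. Without saturated spots the 2003 mean was 0.53. In the spread of PIP ratios, adjacent spots of a location differed by an SD of 0.108, locations on an array by 0.218, arrays of a plant by 0.0928 and plants of a year by 0.0958.

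**Figure D2:**
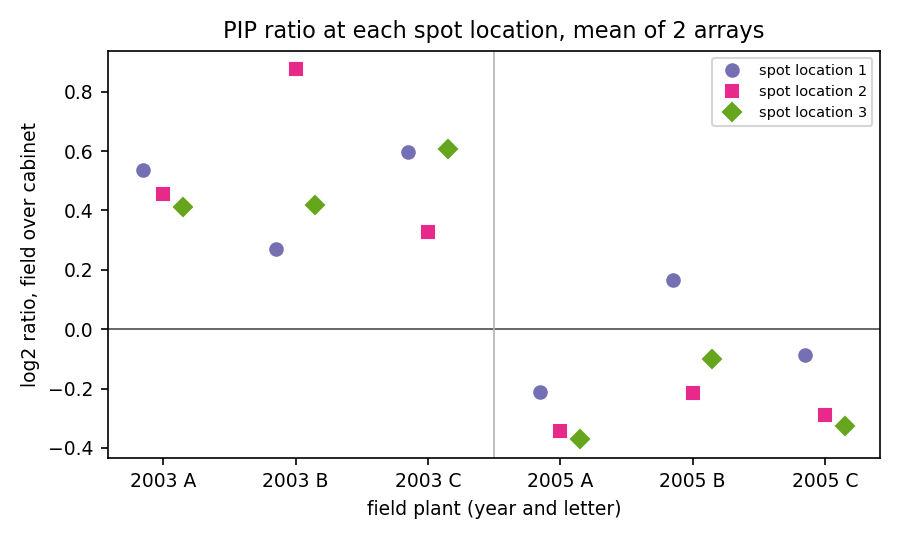
Log2 ratio of field over cabinet for PIP (y axis) in each field plant (x axis) at the 3 spot locations, each point the mean of 2 arrays of 3 adjacent spots. All points of 2003 lie above 0, and of 2005 only location 1 of plant B does, at 0.16.

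The brightness of the PIP spots changed far more between the years than the ratio did, at some locations and not at others. At location 1 the cabinet channel read 1136 to 2847 on the 6 arrays of 2003, with a median of 1827, and 10604 to 22309 on those of 2005, with a median of 17173. The field channel at this location went from 1080 to 2965 in 2003, and from 10359 to 20138 in 2005. Both channels were thus higher at location 1 on every array of 2005 than on any of 2003. Location 3 behaved alike, with cabinet readings of 2306 to 12314 in 2003 and 26011 to 53256 in 2005, and field readings of 1711 to 14018 and 24613 to 51900. Location 2 was bright in both years, with cabinet readings of 23566 to 65534 and 33694 to 40632, and its years overlapped. These values are scanner intensities on a linear scale before any correction.

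**Figure D3:**
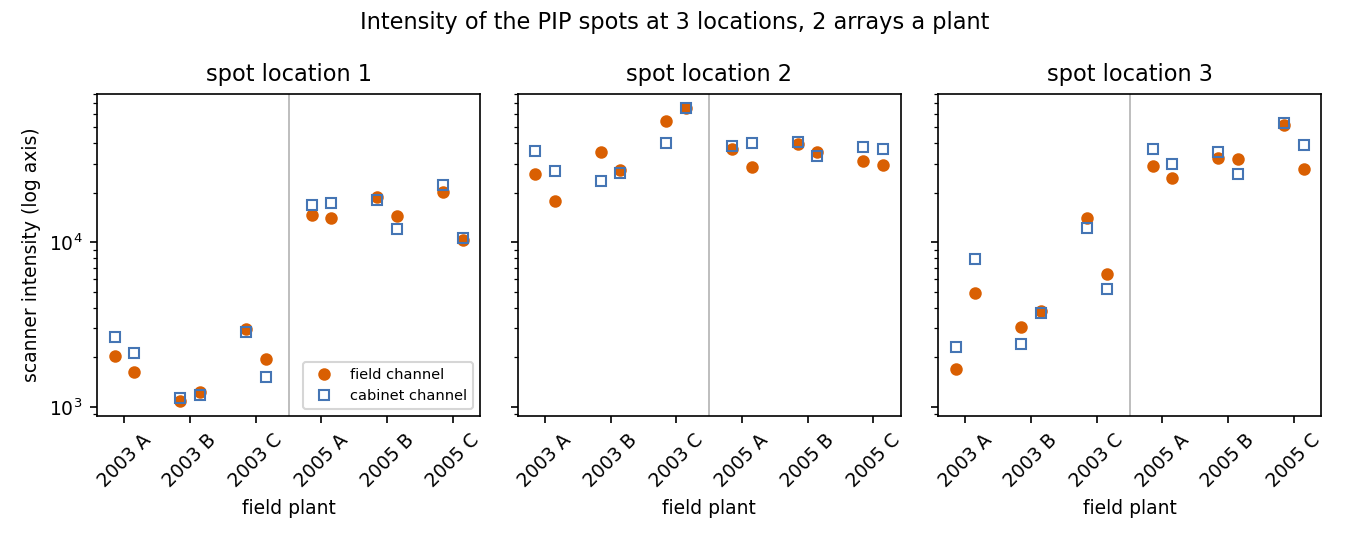
Scanner intensity of PIP (y axis, log scale) at each of the 3 spot locations (panels) on the 2 arrays of each field plant (x axis), in the field and the cabinet channel, each point the mean of 3 adjacent spots. At locations 1 and 3 both channels are higher on all arrays of 2005 than on any array of 2003, and at location 2 the years overlap.

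After the arrays were brought to common intensity distributions, mean brightness over both channels rose 7.97-fold from 2003 to 2005 at location 1 and 6.66-fold at location 3, and was 0.959-fold at location 2. Of the 4483 spot locations of cDNAs on the array, 2.03% rose as much as location 1 and 2.61% as much as location 3. The brightest and dimmest PIP locations thus differed 21.5-fold in 2003 and 2.58-fold in 2005, where the 2003 value includes the 3 saturated spots of location 2. Of the 17 names with at least 3 locations, PIP had the 4th widest range in 2003 and the 10th in 2005, and 9 of the 17 were narrower in 2005. On the log2 scale, the cabinet channel rose from 2003 to 2005 by 3.25 at location 1 and by 3.11 at location 3. The field channel rose there by 2.74 and 2.36. At location 2 the cabinet channel changed by 0.36 and the field channel by -0.48. Averaged over all PIP spots, these unlike changes came to 2.24 in the cabinet channel and 1.54 in the field channel. The part of the brightness in the year difference of the ratio was not tested.

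All PIP readings stood above the local background. The median PIP spot of an array exceeded its local background 12.3-fold to 259-fold, against 2.31-fold to 5.34-fold for the 87 spots without a name. The dimmest location mean, in plant B of 2003 at location 1, was 4.33 times the background in the cabinet channel. Its dimmest spot read 3.54 times the background in the field channel and 2.74 times in the cabinet channel. The unnamed spots of that array stood at 2.87 and 2.31 times, so this spot was little brighter than they were. One PIP reading of 108 carried a filter value of 0, whose meaning the sources used here do not give, and the 2003 mean was 0.51 without it.

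The sign of the ratio in 2005 depended on how each array was normalized. With loess, which removes a trend of the ratio with brightness, 0 of 3 plants of 2005 were above 0. With loess in each spotting block the means were 0.56 ± 0.126 in 2003 and -0.32 ± 0.0813 in 2005 (SD, n = 3 plants each), and the years lay further apart. In the processed values that the authors deposited, the means were 0.42 ± 0.0899 and -0.13 ± 0.145, and plant B of 2005 was just above 0 at 0.03. With only the median of each array set to 0, the 2003 mean was 0.43 ± 0.0891, close to the other values, but the 2005 mean was 0.16 ± 0.267 with 2 of 3 plants above 0. Plant B of 2005 then stood at 0.47, within the range of the 2003 plants.

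Before any normalization the plants of the years also overlapped, with means of -0.03 ± 0.41 in 2003 and -0.13 ± 0.200 in 2005, where the median of all names was -0.48 and -0.30. The trend that loess removed at the PIP spots was -1.06 to -0.25 on the arrays of 2003 and -0.05 to 0.22 on those of 2005. PIP therefore kept a ratio above 0 in all 3 plants of 2003 under the 4 normalizations, while a ratio below 0 in 2005 held with loess, loess by block and, for 2 of 3 plants, the deposited values, and not with median centring. At location 2, which was of like brightness in both years, the median-centred means were 0.47 ± 0.0897 in 2003 and 0.11 ± 0.249 in 2005, and the plants overlapped. With loess the means at this location were 0.55 ± 0.287 and -0.28 ± 0.0631, and the plants did not overlap. Its values of 2003 include the 3 saturated spots of plant C.

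**Figure D4:**
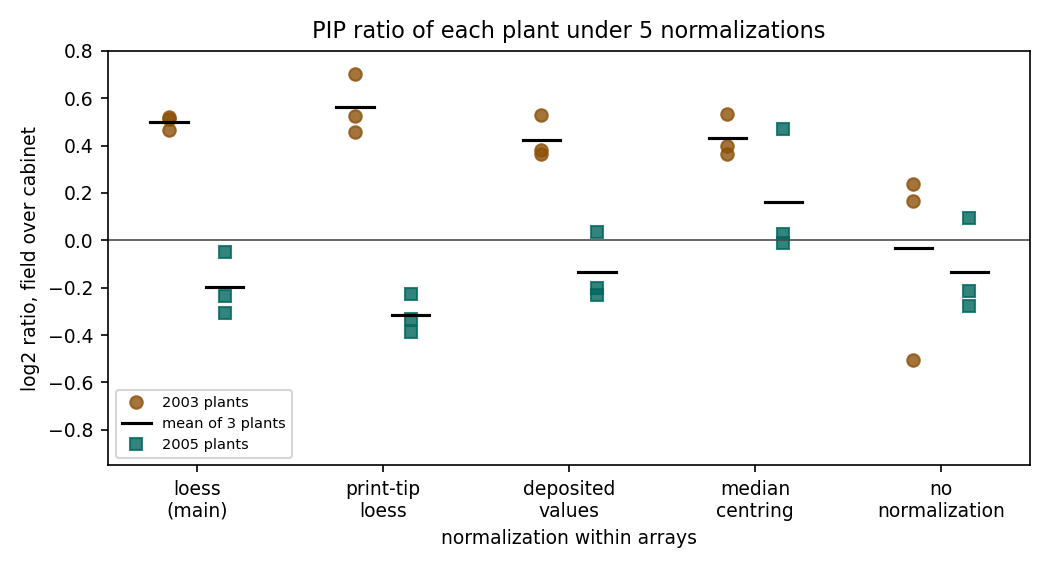
Log2 ratio of field over cabinet for PIP (y axis) in the 3 plants of 2003 and the 3 of 2005 under 5 ways to normalize within arrays (x axis), with the mean of 3 plants as a bar. The years are apart with loess, print-tip loess and the deposited values, and overlap with median centring, where the 2005 mean is 0.16, and with no normalization.

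The dyes, which did not enter the choice of PIP, were compared by the difference between the array with the field RNA in Cy5 and that with it in Cy3. This was 0.05 ± 0.135 (SD, n = 6 plants), above 0 in 4 of 6 plants, and an exact sign-flip permutation test over plants gave p = 0.50 (two-sided, smallest possible 0.0312). The largest dye difference was 0.27 in plant C of 2005. With the field RNA in Cy5 alone the year means were 0.51 and -0.16, and in Cy3 alone 0.49 and -0.23. With median centring the dye difference was 0.41 in the mean (exact permutation p = 0.0312), a setting that does not remove trends of the ratio with brightness.

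PIP stood beside 10 array names from the response to water deficit, cold and abscisic acid (ABA), the hormone that closes stomata when water is short. The names were listed with earlier results of these data known, so the calls and p-values below describe them and are not independent support. These were RD20, COR15, ZEP, CBF, CBF1, DREB1A, DEHYDRIN and DEHDRIN, and AAO3 and AA03, spelled as on the array, and 6 of them (AA03, AAO3, CBF, CBF1, DEHDRIN and DREB1A) did not exceed the unnamed spots in brightness. In 2003, limma called 1 of the 10, RD20, against 17.4% of all names (10% higher and 7.31% lower), and their median log2 ratio was 0.03 against -0.00. In 2005 it called 3, COR15, ZEP and RD20, against 31.5% (16.4% higher and 15.1% lower), with medians of 0.10 and -0.03. None of the 10 was called different between the years by limma, where 1163 of all names had an unadjusted p under 0.05, and the medians were 0.08 and -0.02, with 0.771% of all names called higher and 0.818% lower. With the plant letter as a replicate block, 1 of the 10 passed, COR15 (limma adjusted p = 0.0473), and all names called rose from 68 to 353.

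RD20, which encodes a calcium-binding protein of oil bodies induced by drought and ABA, was above the cabinet in every plant of both years. Its log2 ratios were 2.74, 3.12 and 1.51 in plants A, B and C of 2003 and 1.29, 0.82 and 0.93 in those of 2005, the same order of years as PIP but above 0 in both. COR15, a cold-regulated chloroplast protein gene, took the opposite order of years, with 1.44, 0.49 and 0.36 in 2003 and 3.19, 1.83 and 3.64 in 2005. ZEP, the zeaxanthin epoxidase that makes a precursor of ABA, had ratios of -0.32, 0.77 and 0.82 in 2003 and of 0.89, 1.24 and 0.94 in 2005. Between the years, RD20 differed by -1.44 with a standard error of 0.426 (limma adjusted p = 0.102) and COR15 by 2.13 with one of 0.525 (limma adjusted p = 0.0727). ZEP differed by 0.60 with one of 0.342 (limma adjusted p = 0.306). None of these differences passed the test in the main fit. Among the alternatives, COR15 passed with the plant letter as a replicate block, and RD20 without plant C of 2003. Both also passed with 12 arrays as independent replicates, a setting that counts both arrays of a plant as separate plants. Among the 4 names in the list brighter than the unnamed spots, DEHYDRIN, named for a protein family that accumulates in drying cells, stayed between -0.12 and 0.07 in all 6 plants. Of the calls in 2005, only that of COR15 remained when any 1 plant of 2005 was left out.

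**Figure D5:**
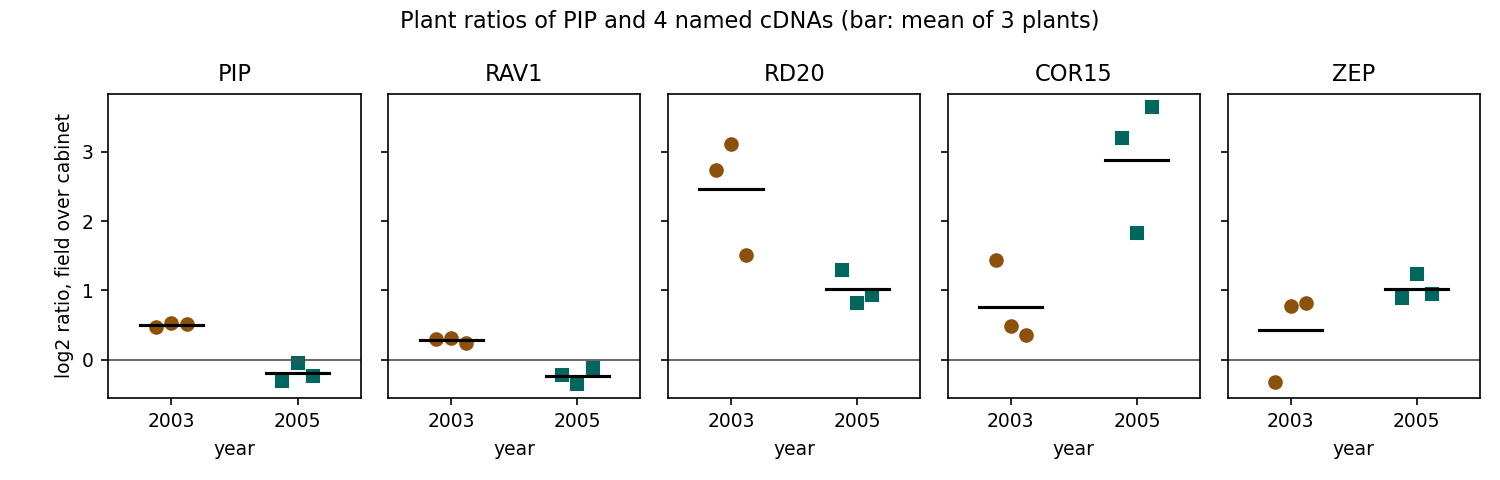
Log2 ratio of field over cabinet (y axis) in the 3 plants of each year (x axis), with their mean as a bar, for PIP, for RAV1, the gene name most like it, and for RD20, COR15 and ZEP. PIP and RAV1 lie above 0 in 2003 and below 0 in 2005, RD20 and COR15 lie above 0 in all 6 plants, and ZEP is below 0 in plant A of 2003.

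The names whose ratios were most like those of PIP were sought by the Euclidean distance over the 6 plants, which share arrays and cabinet RNA with PIP. The nearest gene name was RAV1, a transcription factor gene of Arabidopsis with AP2 and B3 domains, at a distance of 0.51 and Pearson r = 0.90 over 6 plants. RAV1 had ratios of 0.30, 0.31 and 0.24 in 2003 and of -0.22, -0.35 and -0.13 in 2005. ZAT12, a zinc finger gene of the response to oxidative stress, light and cold, followed at 0.64 (r = 0.76), then BMF, a name of unknown meaning, at 0.67 (r = 0.83), HSP, for a heat shock protein, at 0.71 (r = 0.72), and ACC, whose meaning the files do not settle, at 0.77 (r = 0.78). The year means of these 4 names were 0.19 to 0.23 in 2003 and 0.01 to 0.13 in 2005. RAV1, ZAT12, BMF and HSP were no brighter than the unnamed spots, with 2.61 to 3.06 times the background in the field channel against 3.55 times, so for them the ratio of a transcript is not clear of the background. ACC, at 3.73 times in the field channel and 3.63 in the cabinet channel, was at about the level of the unnamed spots, at 3.68 in the latter.

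Closer than any gene name were many clones of which the files name no gene. The nearest, drt9_f06, had a distance of 0.21 and r = 0.97, with year means of 0.50 and -0.21, and the next clone followed at 0.25 and r = 0.97, with 0.53 and -0.15. These spots were 10.1 and 5.69 times as bright as the background in the field channel. In all, 23 of 4278 names lay within a distance of 0.5 of PIP, and 143 had r above 0.9. RAV1 came 25th among all names by distance.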

How the data were processed

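PIP and the listed genes were chosen with earlier results of these data known. Transcripts of 6 field plants were hybridized against cabinet RNA on 12 two-colour cDNA arrays. The authors deposited QuantArray spot and background intensities on a linear scale, neither background-subtracted nor normalized; per-spot filter values and standard deviations were also read. The authors also deposited processed log10 ratios, with a normalization that the sources used here do not give. Turned to log2, these correlated with the scanner ratios at r = 0.936 to 0.992, with column medians of -0.0188 to 0.0126 (log10), so they run as field over cabinet and are centred near 0.

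In R 4.3.3 with limma 3.58.1, background was corrected by normexp (offset 50) and ratios were normalized within arrays by loess. The 1239 control or unnamed spots, 87 of them unnamed, had weight 0 and were then left out, and saturated spots were kept. Averages were taken over the spots of a name and then over both arrays of a plant, so that n counts plants. Year means were fitted with 4 residual and 2.66 prior degrees of freedom. A name was called at a limma adjusted p under 0.05 (Benjamini-Hochberg over 4279 names) and at least 1.5-fold. The fit was tested on simulated data. Brightness was the mean log2 intensity after quantile normalization of that mean between arrays. The number of plants, 3 in each year, limits the precision.

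Named genes were PIP, array names matching a list for water deficit, ABA and cold, other aquaporin names (none), and the 5 gene names and 2 clones nearest to PIP. Across names, plants sharing a letter deviated together from their year means (r = 0.576, 0.243 and 0.314 for A, B and C). No such values are given here for plants of different letters, and the labels state no pairing, so pairing by letter is not established. The main fit left the letters out, and a replicate block by letter was an alternative. Alternatives changed the background correction, normalization, spots, plants, arrays and blocks. The Bayesian model of the methods was not repeated.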

Additional observations from a re-analysis of the deposited data

Results flagged for a closer look

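The PIP ratio of field over cabinet was above 0 in all 3 plants of 2003 and below 0 in all 3 of 2005, a difference between the years of -0.70 on the log2 scale. This opposite movement was what drew attention to it. The difference was not tested, since PIP was chosen with these ratios known, and with median centring or in the deposited values not all plants of 2005 were below 0.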

How the results depend on the processing

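The 2003 ratio of PIP, 0.50, moved by more than the small spread of its plants to 0.46 with no background correction, 0.56 with print-tip loess, 0.43 with median centring, 0.42 in the deposited values, 0.53 without saturated spots, and 0.47 and 0.55 at locations 1 and 2 alone. It reversed to -0.0335 with no normalization, an alternative chosen after seeing the data, as were a loess span of 0.1 and the removal of the spot with filter value 0. The 2005 ratio, -0.20, reversed to 0.16 with median centring and moved to -0.0447 at location 1 alone. The year difference over all PIP spots, -0.70, stayed below 0 in these alternatives and moved to -0.88 with print-tip loess, -0.27 with median centring, -0.56 in the deposited values, -0.51 and -0.84 at locations 1 and 2 alone, and -0.10 with no normalization. The cause of these moves was not tested.

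Leaving out 1 plant at a time gave 0.49 to 0.52 for 2003, -0.27 to -0.14 for 2005, -0.77 to -0.64 for the difference and 0.000811 to 0.0739 for the dye difference. The dye difference passed only with median centring (0.41, exact permutation p = 0.0312). Without 1 plant, 1 to 2 of the 10 listed genes were called in 2003, the second being ZEP without plant A of 2003, 1 to 3 in 2005 and 0 to 1 between the years, that being RD20 without plant C of 2003. Print-tip loess left 2 called in 2005, against 1192 of all names. With 12 arrays as independent replicates, 2 were called in 2003 and 2 between the years, against 1240 and 1241 of all names. That setting counts both arrays of a plant as if they were separate plants. The replicate block by plant letter cannot change the PIP means, since each letter has 1 plant in each year. It called 1, 3 and 1 listed genes in 2003, in 2005 and between the years, against 953, 1541 and 353 of all names. The scan day as a random block over arrays gave PIP 0.49, -0.22 and -0.71. The years shared no scan day, so this setting cannot take an effect of scan day out of the year difference. Over all names, 743 were called in 2003. Without plants A, B and C of 2003 in turn, this became 675, 382 and 513. Without plants A, B and C of 2005 in turn, it became 471, 515 and 457. In 2005, 1349 were called, and this became 734, 452 and 570 when plants A, B and C of 2005 were left out in turn. Between the years 68 were called. This count was 0 without any 1 plant of 2005, and 7, 91 and 158 when plants A, B and C of 2003 were left out in turn.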
